A study of Mus musculus with 10 samples.

Results

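The Ikaros family of transcription factors comprises 5 mouse genes, Ikzf1 (Ikaros), Ikzf2 (Helios), Ikzf3 (Aiolos), Ikzf4 (Eos) and Ikzf5 (Pegasus). Their RNA levels were followed in cultured splenic natural killer cells (NKC) with and without Runx3, a transcription factor of cytotoxic lymphocytes. Members were found by gene symbol in the array's gene table, which gave 13 of 45101 probe sets and 5 of 18194 named genes. Every probe set is reported, and the probe set with the highest mean over the 10 arrays stands for its gene. The probe sets standing for the genes were thus chosen by their mean level, which is therefore only described.

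All samples came from spleens of individual ICR mice aged 6 weeks, which the labels give as male or female without saying which. WT mice were Runx3 +/+ and Runx3-/- (KO) mice lacked the gene in the whole animal, so the NKC had also developed without it. NKC were enriched by negative selection and grown for 7 days, either with recombinant human IL-2 at 1000 u/ml or with mouse IL-15. They were also sorted on the surface marker DX5, per the methods. The 10 arrays comprised 3 WT and 3 KO in IL-2 and 2 WT and 2 KO in IL-15. All 4 groups had thus been in culture with a cytokine, and uncultured NKC were not analysed here.

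Ikaros proteins are zinc finger factors. The fingers near the N-terminus bind DNA, and those at the C-terminus let family members pair with themselves and with each other, so that the balance between members shapes what a dimer does. They can recruit the NuRD remodelling complex and the CtBP and Sin3 corepressors, and they act throughout lymphocyte development. In mice, Aiolos is needed for the last steps of NKC maturation, Helios is high in NKC that carry a mutated NKp46 receptor, and Helios and Eos are best known from regulatory T cells.

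Values are log2 signals per probe set, and a gene was tested when at least 2 arrays reached log2 5. This held for 9391 genes, among them all 5 members, whose gene probe sets were at or above log2 5 in 10 of 10 arrays. A gene was called when the Benjamini-Hochberg adjusted p of limma over all tested genes was under 0.05 and the change was at least 1.5-fold. Array medians lay between 3.20 and 3.37. In the deposited values, the sum of a WT array and the KO array of the same number was identical for every probe set within a cytokine, to within 0.00014. Differences between pairs had therefore been removed before deposit, the WT and KO array of a pair deviate from their group means by mirrored amounts, and the spread within a group is smaller than between mice. KO and WT were accordingly compared within pairs. Both cytokines shared 1 fit. Each p therefore rests on a spread pooled over the pairs of both cytokines and, by limma, over genes. It does not rest on the SD printed beside it. With constant sums, the WT and KO arrays of a cytokine fail to overlap whenever all its pair differences have the same sign. A separation of the genotypes below therefore says no more than those signs. In bulk RNA, fewer cells of a type and less RNA per cell cannot be told apart.

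In IL-2, loss of Runx3 went with a rise of Aiolos and a fall of Eos. The gene probe sets of Ikaros, Helios and Pegasus did not pass the test, but a further Pegasus probe set was called lower in KO. By gene probe sets, 2 of 5 members were called, where 19.7% of all tested genes were (10.5% higher and 9.17% lower in KO). The levels of 3 members (Ikzf1, Ikzf3 and Ikzf4) did not overlap between the groups, which held for 54.4% of tested genes. With 5 genes, neither count was read as a property of the family. The median difference of all tested genes was 0.11.

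Ikzf3, probe set 1436649_at, measured 9.61, 9.91 and 10.39 in the WT arrays in IL-2 and 12.20, 11.89 and 11.42 in the KO arrays. Every KO array was above every WT array. The difference was 1.87 ± 0.79 on the log2 scale (SD, n = 3 pairs), or 3.65-fold, with single pairs at 2.59, 1.98 and 1.03 (adjusted p = 0.0126). It was called with all 3 pairs, but the adjusted p was 0.0736 without pair 1 and 0.0571 without pair 2, at differences of 1.51 and 1.81.

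A further Ikzf3 probe set, 1441088_at, gave the same picture. It measured 5.41, 6.19 and 6.34 in WT and 8.59, 7.82 and 7.67 in KO, a difference of 2.04 ± 1.0 (4.12-fold, adjusted p = 0.0167). The third Ikzf3 probe set, 1453378_at, was under log2 5 on every array and was not tested.

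Ikzf4, probe set 1457342_at, moved the other way. It measured 8.56, 7.98 and 8.74 in WT and 6.56, 7.14 and 6.38 in KO, so that again the groups did not overlap. The difference was -1.74 ± 0.79 (SD, n = 3 pairs), a 3.33-fold fall, with single pairs at -2.0, -0.85 and -2.36 (adjusted p = 0.0215). The call was lost without pair 1 (adjusted p = 0.120 at -1.60) and without pair 3 (0.0725 at -1.42).

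The dimmer Ikzf4 probe set 1438274_at, at or above log2 5 in 6 of 10 arrays, differed between KO and WT by -0.75 ± 0.61 and was not called (adjusted p = 0.450). Averaging all Ikzf4 probe sets gave -0.84 and no call (adjusted p = 0.114). The third, 1460664_at, was under log2 5 throughout.

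Ikzf1, probe set 1436312_at, measured 12.40, 12.83 and 12.72 in WT and 13.68, 13.25 and 13.35 in KO. Each KO array was above each WT array, and the difference of 0.78 ± 0.44 (1.71-fold) had an adjusted p of 0.0852 and was not called. The other Ikzf1 probe set, 1421303_at, lay between 6.11 and 6.34 on these arrays with no separation of the groups (-0.10 ± 0.16).

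Ikzf2, probe set 1437542_at, was low in IL-2, at 6.36, 6.65 and 5.81 in WT and 5.48, 5.19 and 6.03 in KO. The groups overlapped, with pairs at -0.88, -1.45 and 0.23 (adjusted p = 0.205).

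Ikzf5 depended on the probe set. Probe set 1429431_at overlapped between WT (7.56, 8.45 and 7.63) and KO (8.07, 7.18 and 8.01), with a difference of -0.13 ± 0.99 (adjusted p = 0.845). Probe set 1436554_at measured 8.42, 8.91 and 8.95 in WT and 7.92, 7.44 and 7.39 in KO, with no overlap. Tested among all single probe sets, its difference was -1.18 ± 0.58 (2.26-fold lower in KO, adjusted p = 0.0409). Of all single probe sets 18% were called in IL-2.

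**Figure D1:**
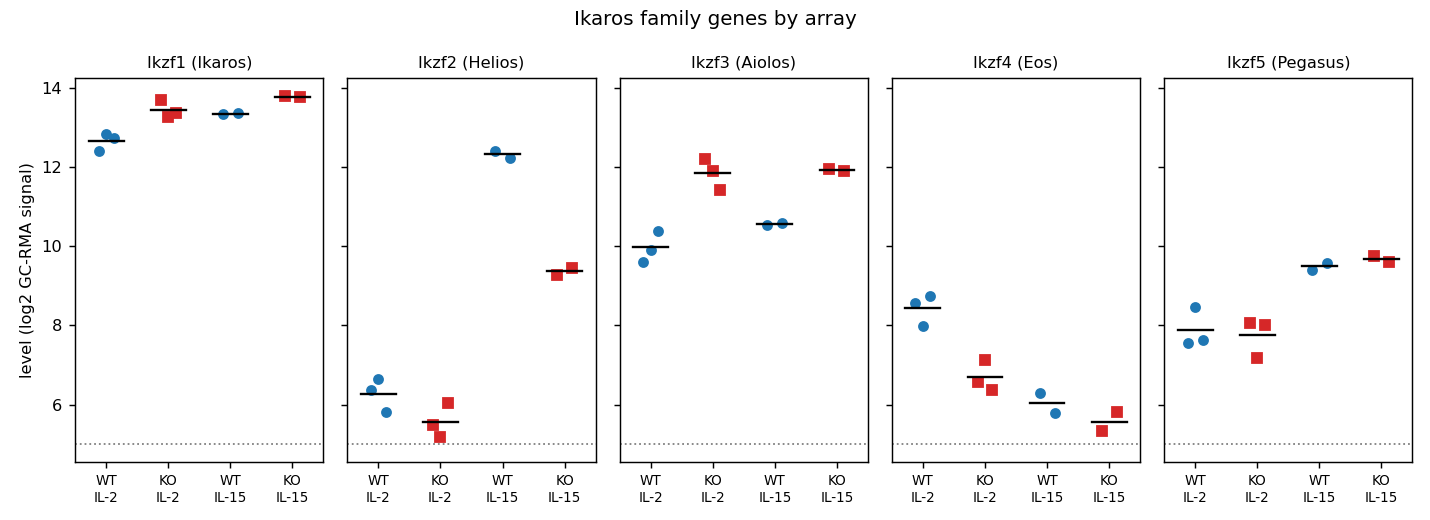
Level of each Ikaros family gene (log2 signal of its gene probe set) on the 10 arrays, with WT as circles, KO as squares, a bar for the group mean and a dotted line at log2 5. Ikzf2 sits between 12.23 and 12.40 in WT in IL-15 against 9.28 and 9.46 in KO, while Ikzf3 is higher in KO than in WT in both cytokines and Ikzf4 is highest in WT in IL-2.

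In IL-15, Helios was the only member to pass the test for loss of Runx3, while Aiolos was higher in KO in both pairs without passing it. The 1 call among 5 members stood beside 1.3% of tested genes (0.458% higher and 0.841% lower in KO). The levels of 4 members (all but Ikzf4) did not overlap between genotypes, but neither did those of 64.6% of tested genes with only 2 arrays a group. The median difference of all tested genes was -0.01.

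Ikzf2 measured 12.40 and 12.23 in the WT arrays in IL-15 and 9.28 and 9.46 in the KO arrays. The groups lay far apart. The difference was -2.94 ± 0.24 (SD, n = 2 pairs), a 7.69-fold fall at rank 113 from the bottom of the 9391 differences. Its SE in the fit shared with IL-2 was 0.43 (adjusted p = 0.0363). Without pair 1 the difference was -2.77 (adjusted p = 0.381) and without pair 2 it was -3.12 (0.163). In either case the single pair left was assumed to vary like the IL-2 pairs.

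The dimmer Ikzf2 probe set 1456956_at measured 6.91 and 6.80 in WT and 4.19 and 4.30 in KO. It was tested only because these WT arrays exceeded log2 5, so its difference of -2.61 ± 0.15, at least 3.62-fold against log2 5, is given as a description. Among all single probe sets 0.781% were called in IL-15. The third, 1421643_at, stayed between 2.09 and 2.16 on all arrays. The mean over all Ikzf2 probe sets was -1.85 and not called (adjusted p = 0.0690).

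Ikzf3 measured 10.53 and 10.58 in WT and 11.94 and 11.89 in KO. Both KO arrays were higher, by 1.36 ± 0.06 (2.57-fold). In the fit shared with IL-2 the SE was 0.41, the adjusted p was 0.197 and the gene was not called. Probe set 1441088_at was again close, at 5.95 and 5.91 in WT and 7.34 and 7.38 in KO (1.43 ± 0.06, adjusted p = 0.270).

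Ikzf1 measured 13.32 and 13.36 in WT and 13.79 and 13.75 in KO. The groups did not overlap, and the difference was 0.43 ± 0.06 (adjusted p = 0.663). Ikzf4 overlapped, at 6.30 and 5.80 in WT and 5.33 and 5.82 in KO (-0.47 ± 0.70, adjusted p = 0.752). Ikzf5 measured 9.41 and 9.57 in WT and 9.76 and 9.59 in KO, a difference of 0.18 ± 0.23 with an adjusted p of 0.936.

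**Figure D2:**
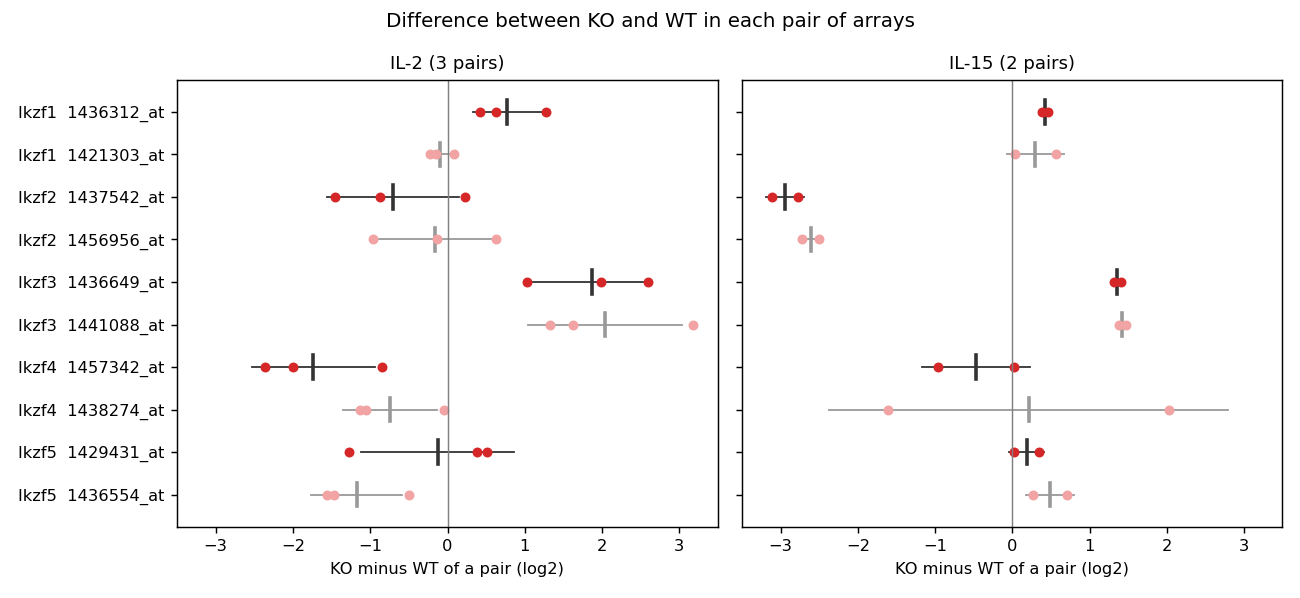
KO minus WT in each pair of arrays (log2, points) for the 10 tested probe sets of the Ikaros family in IL-2 and in IL-15, with a vertical tick at the mean and a line of 1 SD to each side. Dark marks are the gene probe sets. Both Ikzf3 probe sets lie above 0 in all 5 pairs, and both Ikzf2 probe sets lie far below 0 in both IL-15 pairs. Of the latter, 1456956_at was tested only because of the WT arrays in IL-15, so its position is a description and no support.

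Whether the KO difference itself depended on the cytokine was tested as an interaction. No member was called and neither was any of the 9391 genes (0% called), although 1106 genes passed an unadjusted p of 0.05 with 1.5-fold. Ikzf2 had the largest interaction of the 5 genes, with a KO difference in IL-15 below that in IL-2 by 2.24 on the log2 scale (SE 0.56, unadjusted p = 0.00552, adjusted p = 0.276). For Ikzf4 the KO difference was higher in IL-15 by 1.26 (adjusted p = 0.461). Those of Ikzf1 (-0.35), Ikzf3 (-0.51) and Ikzf5 (0.31) had adjusted p-values of 0.767, 0.729 and 0.869. A call of Ikzf3 and Ikzf4 in IL-2 alone and of Ikzf2 in IL-15 alone was therefore not shown to be a difference between the cytokines.

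The cytokine contrasts set different mice against each other and came with a difference in sex-linked RNA. Xist, expressed from the inactive X chromosome, averaged 5.10 and 4.92 in WT and KO in IL-2 but 14.38 and 14.56 in IL-15, and Y-linked Eif2s3y averaged 8.60 and 7.88 against 2.42 and 2.36. Cytokine and sex of the mice thus cannot be told apart in any of the values that follow. The same holds for the interaction above and for KO calls in IL-2 set beside those in IL-15. Since spread between pairs had been removed, p-values of these contrasts are also too small by an unknown amount.

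Helios had by far the widest range of the family. Ikzf2 averaged 6.27 in WT in IL-2 and 12.31 in WT in IL-15, a difference of 6.04 (65.9-fold, adjusted p = 0.000241), which was rank 4 among the rises of 9391 genes. In KO it went from 5.57 to 9.37, a difference of 3.80 (13.9-fold, adjusted p = 0.000638) at rank 24. Every array in IL-15 was above every array in IL-2 in both genotypes. Probe set 1456956_at was at least 3.62-fold higher in IL-15 in WT, but it reached log2 5 on the 2 WT arrays in IL-15 only and was tested because of them, so this is a description and no support. In KO it stayed under log2 5 on all arrays.

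Eos moved the other way. Ikzf4 averaged 8.43 in IL-2 and 6.05 in IL-15 in WT, a difference of -2.38 (5.21-fold, adjusted p = 0.00145), and 6.69 and 5.58 in KO (-1.12, 2.17-fold, adjusted p = 0.0207). All IL-15 arrays were below all IL-2 arrays of the same genotype. The call in KO was lost without KO replicate 1 in IL-15 (-0.87, adjusted p = 0.138) and without a filter on low values (adjusted p = 0.0694). Probe set 1438274_at was at least 2.34-fold lower in IL-15 in WT and at least 1.40-fold lower in KO, but it reached log2 5 on the 6 IL-2 arrays only and was tested because of them, so this too is a description.

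Ikaros rose a little in WT. Ikzf1 averaged 12.65 in IL-2 and 13.34 in IL-15, a difference of 0.69 (1.62-fold, adjusted p = 0.033). The call was lost without WT replicate 1 in IL-2 (0.57, adjusted p = 0.0811) and without either WT replicate in IL-15 (0.71 and 0.67, adjusted p = 0.133 and 0.154). Averaging it with the dimmer probe set 1421303_at, which differed by -0.51 in WT, left a difference of 0.09 (adjusted p = 0.649). In KO the difference was 0.34 (adjusted p = 0.220).

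Aiolos was not called in either genotype. Ikzf3 differed by 0.58 in WT (9.97 against 10.55, adjusted p = 0.110), or by 0.79 without WT replicate 3 in IL-2, where it was called (adjusted p = 0.0284). In KO it differed by 0.08 (11.84 against 11.91, adjusted p = 0.835), with overlapping arrays.

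The Pegasus probe sets disagreed. Probe set 1429431_at rose from 7.88 to 9.49 in WT (1.61, 3.05-fold, adjusted p = 0.00611) and from 7.75 to 9.67 in KO (1.92, 3.79-fold, adjusted p = 0.00342). Probe set 1436554_at fell in WT, from 8.76 to 7.45 (-1.31, 2.49-fold, adjusted p = 0.00504), with all IL-15 arrays below all IL-2 arrays. In KO it measured 7.58 and 7.94 (0.35, adjusted p = 0.266). The cytokine direction of Ikzf5 RNA in WT therefore cannot be given for the gene as a whole, and the mean of both probe sets was 0.15 (adjusted p = 0.623).

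Together, 4 of 5 members were called between the cytokines in WT, beside 47% of tested genes (28.8% higher and 18.2% lower in IL-15), and 3 of 5 in KO, beside 44.5% (23.1% higher and 21.4% lower). Of all single probe sets, among which probe set 1436554_at was tested, 48.4% were called in WT and 45.8% in KO. Non-overlapping arrays were found for 5 members in WT and 4 in KO (all but Ikzf3), where 70% and 68.3% of tested genes had them. A call or a separation between the cytokines was thus common among all genes. The median difference of all tested genes was 0.18 in WT and -0.08 in KO, and quantile normalization moved these to -0.05 and -0.20. No member turned direction under it or under centring on the array median.

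The order of the groups differed from gene to gene. For Ikzf1 it was KO in IL-15, KO in IL-2, WT in IL-15 and WT in IL-2, and the arrays of the middle groups overlapped. For Ikzf3 both KO groups (11.91 in IL-15 and 11.84 in IL-2, overlapping) lay above both WT groups. Ikzf2 ran from WT in IL-15 through KO in IL-15 to both IL-2 groups, which overlapped. Ikzf4 ran from WT in IL-2 through KO in IL-2 to WT and KO in IL-15, which overlapped. For Ikzf5 both IL-15 groups were above both IL-2 groups by probe set 1429431_at.

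**Figure D3:**
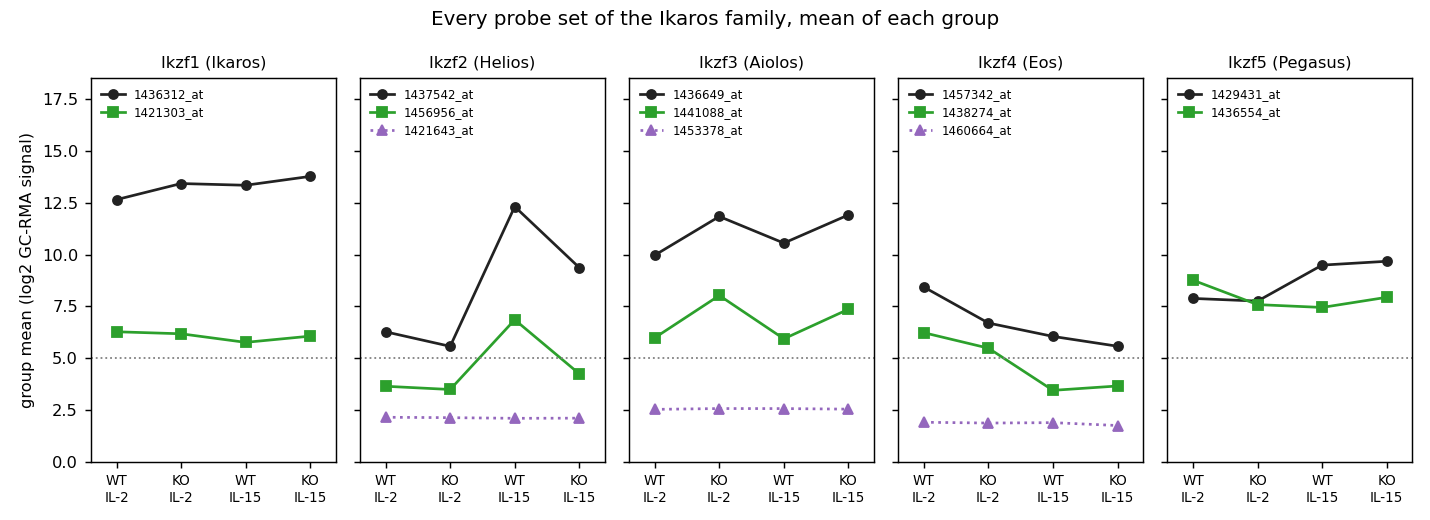
Group means (log2 signal) of all 13 Ikaros family probe sets, 1 panel per gene, with dotted curves for the 3 probe sets under log2 5 on every array and a dotted horizontal line at log2 5. The probe sets of Ikzf3 follow each other between WT and KO, while those of Ikzf5 run in opposite directions in WT, 1429431_at from 7.88 to 9.49 and 1436554_at from 8.76 to 7.45.

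As a description over the 10 arrays, which share 4 groups and have lost their pair differences, both Ikzf3 probe sets correlated at r = 0.92, both Ikzf2 probe sets at 0.93 and both Ikzf4 probe sets at 0.82. The Ikzf1 and Ikzf5 probe sets correlated at -0.42 and -0.27. Between genes, Ikzf1 ran with Ikzf3 (r = 0.86) and against Ikzf4 (-0.92), and Ikzf2 ran with probe set 1429431_at of Ikzf5 (0.87), which the other Ikzf5 probe set did not follow. Ikzf2 and Ikzf3 were nearly unrelated (-0.11). The tested genes most like each member by Pearson's r were Ywhab (0.994), Pip4p2 and Znrf3 for Ikzf1, Qpct (0.995), Paip2b and Fuca2 for Ikzf2, and Trappc10 (0.999), Tmem80 and Rnpepl1 for Ikzf3. For Ikzf4 they were Fbxw9 (0.997), Creld1 and Pim3, and for probe set 1429431_at of Ikzf5 Pura (0.997), Zfp281 and Gpalpp1. These were the highest values among 9391 genes and carry no test.

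Because Helios and Eos are known from regulatory T cells, markers of other cells were read beside them. Foxp3, which defines regulatory T cells, did not exceed log2 2.61 on any array, and Tnfrsf4 was also under log2 5 throughout. Summed linear signal of the 5 regulatory T cell markers was 6516 to 9741 in WT in IL-2 and 5002 to 6444 in KO, and 4321 to 4863 and 4005 to 4559 in IL-15. In WT in IL-2 the sum came mainly from Tnfrsf18 (mean 11.59), Il2ra (11.58) and Ctla4 (10.51), while in WT in IL-15 Il2ra averaged 5.88. The sum follows these genes, and whether it reflects regulatory T cells was not tested. In this list Ctla4 fell in KO, at least 45.6-fold in IL-2 (adjusted p = 0.00445) and at least 30.6-fold in IL-15 (0.0442), and Il2ra fell in KO in IL-2 by 1.95 on the log2 scale (adjusted p = 0.0162). The list did not move one way, since the difference of Il2ra in IL-15 was 1.52 (adjusted p = 0.202), Tnfrsf18 differed by 0.66 in IL-2 (0.137) and by 0.25 in IL-15 (0.841), and the median of its 3 tested genes was -1.95 in IL-2 and 0.25 in IL-15. Genes given with "at least" passed the filter on low values through their brighter group, which in part sets their difference.

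Of 10 T cell markers 5 (Cd5, Cd6, Cd4, Cd8a and Cd8b1) stayed under log2 5. The summed signal of the list was 1407 to 2002 in WT and 3487 to 3962 in KO in IL-2, and 1931 to 3824 and 2840 to 3352 in IL-15. Bcl11b, a transcription factor of T cell commitment, rose in KO by 3.15 in IL-2 (adjusted p = 0.00137) and by 1.80 in IL-15 (0.0426), and Lat rose in KO in IL-2 by 1.17 (0.0164). Cd3g went the other way without passing the test, with differences of -0.56 in IL-2 (adjusted p = 0.644) and -2.13 in IL-15 (0.400), and Cd3e and Cd3d were not called in either cytokine. Of 6 named B cell markers 5 were under log2 5, and Blk alone took the summed signal to between 258 and 468 in KO in IL-2 against 39.9 to 49.0 in the other groups. Macrophage and granulocyte markers summed to 196 to 1412 and 142 to 1005 in WT and KO in IL-2, and to 49.4 to 139 and 103 to 331 in IL-15, and Cd14 fell in KO in IL-2, at least 6.40-fold (adjusted p = 0.0494), while Lyz2 differed by 2.90 (0.114) and Csf1r by -1.56 (0.438). Of 12 named NKC markers 11 reached log2 5, and Itga2, which carries the DX5 epitope, did not. In KO in IL-2 the NKC markers Ncr1 and Tbx21 rose (2.11 and 1.42) and Prf1 fell (-1.73), and in IL-15 none was called. The summed signal of the NKC list was 163260 to 196620 in WT and 134560 to 160620 in KO in IL-2. In IL-15 it was 179920 to 185920 in WT and 140790 to 145200 in KO. The median difference of its 11 tested genes was -0.13 in IL-2 and -0.34 in IL-15, beside 0.11 and -0.01 for all tested genes. Of 7 named dendritic cell markers Siglech, Flt3 and Xcr1 were under log2 5, and the list summed to 762 to 1057 and 610 to 925 in WT and KO in IL-2 and to 1538 to 1970 and 1097 to 1395 in IL-15. H2-Aa (at least 4.28-fold) and Cd74 (at least 6.39-fold) rose in KO in IL-2 while Tcf4 fell (-1.29). Between the cytokines, the called marker that moved farthest in WT was Il2ra, encoding the high-affinity chain of the IL-2 receptor, with a difference of -5.70 in WT and -2.23 in KO. The part of other cells in the changes of Ikzf2, Ikzf3 and Ikzf4 was not tested.

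The partners of the family were read from lists of known complexes. The counts that follow stand beside 10.5% of all tested genes called higher and 9.17% called lower in KO in IL-2. In IL-2, 1 of 13 NuRD subunits rose in KO, Chd3, a remodelling ATPase, by 1.85 ± 0.67 (adjusted p = 0.0166), and none fell, with a list median of 0.57 beside 0.11 for all tested genes. Of 5 CtBP and Sin3 corepressor genes, Ctbp1 rose by 0.96 ± 0.10 (adjusted p = 0.032), with a list median of 0.0055. Ctbp2 averaged lower in KO (9.53 against 10.47 in WT) and was not called. Of 4 tested SWI/SNF genes Arid1a rose by 1.23 ± 0.63 (adjusted p = 0.0421), with a list median of 0.81. In IL-15 no gene of these 3 lists was called, beside 1.3% of all tested genes. The differences farthest from 0 there were -0.77 for Mta1 of NuRD, -0.57 for Ctbp2 and 0.64 for Smarcc1 of SWI/SNF.

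Cereblon, encoded by Crbn, is the substrate receptor through which thalidomide analogs send Ikaros and Aiolos to degradation in human cells. Crbn was the 1 of 4 tested genes of its ubiquitin ligase that was called, and it fell in KO in IL-2 by 1.18 on the log2 scale (SD 0.13, n = 3 pairs, adjusted p = 0.0183), beside 9.17% of all tested genes called lower. In IL-15 the difference was -0.81 ± 0.28 (adjusted p = 0.280). From IL-2 to IL-15, Crbn rose by 1.74 in WT (adjusted p = 0.000966) and by 2.11 in KO (0.000727). Of its ligase partners, the scaffold genes Cul4b (2.10 and 2.71) and Cul4a (0.73 and 0.94) also rose in both genotypes, while the adaptor gene Ddb1 fell by 0.84 and 0.93.

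Of 16 genes described as targets of Ikaros family proteins, 7 could be tested. In IL-2, 3 of them rose in KO and none fell: Ifng, the cytokine of activated NKC, by 1.73 ± 0.41 (adjusted p = 0.015), Tbx21, encoding T-bet and also among the NKC markers, by 1.42 ± 0.67 (0.026), and Cdkn1b, a cell cycle inhibitor, by 1.15 ± 0.38 (0.0452). Of all tested genes 10.5% were called higher and 9.17% lower, and the list median was 1.15 beside 0.11 for all tested genes. In IL-15 none was called, beside 1.3% of all tested genes, and the list median was 1.14 beside -0.01 for all tested genes. Both medians include Hes1 and Dtx1, whose WT means were under log2 5. No gene of any of these lists was called in the interaction, and neither was any other tested gene.

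**Figure D4:**
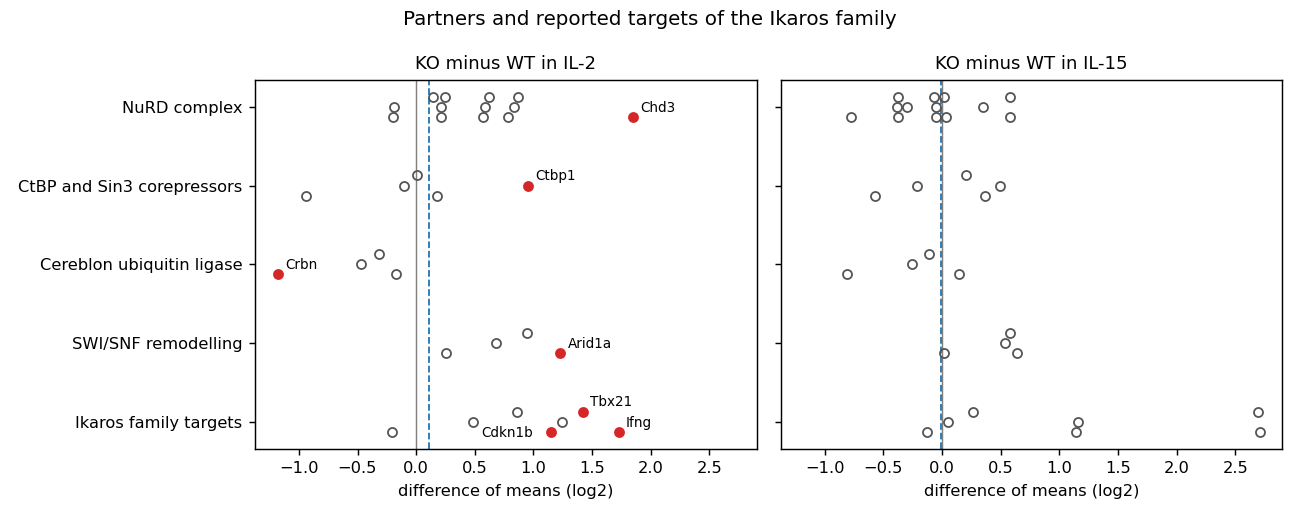
KO minus WT (difference of group means, log2) of the tested genes in 4 complexes and in the list of Ikaros family targets, in IL-2 and in IL-15. Filled red points are called genes, all of them in IL-2, where 7 are named, and the dashed line is the median of all tested genes, 0.11 in IL-2 and -0.01 in IL-15.

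Between cytokines in WT, 28.8% of all tested genes were called higher in IL-15 and 18.2% lower, and in KO 23.1% and 21.4%. In WT, 4 of 13 NuRD genes rose, a share close to that of all genes, Chd3 (1.57), Gatad2b (0.94), Mta3 (0.72) and Mbd2 (0.71). In KO none of this list rose and 2 fell, Mbd3 (-2.07) and Gatad2a (-1.05). Rb1, a pocket protein grouped with the corepressors, rose in both genotypes (1.46 and 1.49), Sin3a rose in KO (1.0) and Ctbp2 fell in WT (-1.03). Among the SWI/SNF genes Smarcb1 fell in KO (-0.76) and none was called in WT. Of the target genes, Cdkn1b rose by 2.57 in WT and 1.29 in KO and Bcl2, a survival factor, by 1.28 and 1.75, while Myc fell by 1.43 and 1.14 and Ifng fell in KO (-1.05). Hes1 and Dtx1 were also called lower in WT, but both WT group means were under log2 5, so no difference is given.

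Runx3 RNA did not check the genotype. Its probe set 1440275_at averaged 11.65 in WT and 11.07 in KO in IL-2, with overlapping arrays, and 12.48 and 11.38 in IL-15. Where this probe set lies relative to the deleted part is not given in the sources used here.

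Promoter sequence was read for the members that the RefSeq table (build GRCm38.p6) holds, Ikzf1 with 2 start sites and Ikzf5 with 1. The letters of the RUNX motif (TGTGGT or its spelling TGTGGC, and likewise TGCGGT or its spelling TGCGGC, on both strands) were searched in the 250 bases before each start. They occurred once, in Ikzf1, where the match began 118 bases upstream of a start site. The window around it, at chr11:11685787-11685832 on the plus strand, is shown with the match in capitals because Runx3 is the factor removed in these mice.
Ikzf1 promoter window: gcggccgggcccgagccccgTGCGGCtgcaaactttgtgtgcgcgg
Any of the 4 spellings was found in 12467 of 32851 promoters of this length (37.95%) and TGCGGC in 9.47%, a common match. TGGGAA, the core recognised by Ikaros, was in none of the 3 windows and in 21.6% of all promoters.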

How the data were processed

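NKC RNA was hybridised to Affymetrix mouse 3' expression arrays, 1 per mouse. The deposited log2 values are the authors' GC-RMA signals (Partek software, version not given in the sources used here) and were used without further scaling. Of 45101 probe sets, 34958 had 1 gene symbol in the platform table, 932 had several and 9211 were not named there. The probe set of highest mean over 10 arrays stood for its gene.

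Tests used limma 3.58.1 in R 4.3.3, adjusted by Benjamini-Hochberg over genes with at least 2 arrays at log2 5. A call needed an adjusted p under 0.05 and 1.5-fold. The KO fits held pair as a fixed term (3 residual degrees of freedom, against 6 without), since pair sums agreed to 0.00014 in IL-2 and 0.00013 in IL-15 whereas crossed sums differed by a median of 0.193 and 0.170. The labels give matching numbers but no reason for the pairing. Both cytokines were in the same KO fit, with 1 variance per gene. Each cytokine contrast was fitted within 1 genotype (3 residual degrees of freedom). The number of arrays limits the precision. "At least" folds set the brighter group against log2 5. SDs are over pairs. Summed marker signals are sums of 2 to the power of the log2 values.

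Named genes were all member probe sets, Runx3, sex-linked genes, called genes of each list (at most 5 per comparison, or the largest uncalled change), called markers and the 3 genes best correlated with each member. Changes with both groups under log2 5 are given no value. Eif2s3y and the uncalled markers named beside called ones were added after values were seen. Members and lists were chosen with earlier results of these data known. Alternatives covered the block, scaling, low-value filter, probe set choice, call rule, variance trend and left-out arrays. Calls of genes outside the family and of single probe sets were not recomputed without single arrays. The main fits, and the KO fits without the pair block, were run on simulated data. The other alternatives were not. Promoter sequences are RefSeq's. Columns of other samples were not present.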

Additional observations from a re-analysis of the deposited data

Results flagged for a closer look

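For Ikzf5 probe set 1436554_at, all 3 IL-2 pairs had KO below WT (-0.50, -1.47 and -1.56) and both IL-15 pairs had KO above WT (0.71 and 0.27), so that every pair in one cytokine moved against every pair in the other. KO minus WT was higher in IL-15 than in IL-2 by 1.67 on the log2 scale. The interaction test of this difference did not pass over all single probe sets (adjusted p = 0.331). Such a split was looked for in every tested probe set of the family. Its share among all probe sets was not determined, so the split is a description only. Cytokine and sex of the mice cannot be told apart here either. The other tested Ikzf5 probe set, 1429431_at, showed no such split, with pairs at 0.51, -1.27 and 0.38 in IL-2 and 0.35 and 0.02 in IL-15.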

How the results depend on the processing

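Over the alternatives that kept all arrays, member values held their direction and side of the threshold 208 times, lost a call 8 times, gained one 7 times and turned direction 2 times. The 2 turns came with the mean of all probe sets of a gene (interaction of Ikzf1 0.025, cytokine difference of Ikzf3 in KO -0.21). With no replicate block, so that the paired structure was ignored, 3803 genes were called in IL-2, 1321 in IL-15 with 2 family members, and 1157 in the interaction with 1; Ikzf1 in IL-2 (adjusted p = 0.00427), Ikzf3 in IL-15 (0.0183) and the Ikzf2 interaction (0.0141) were then called. Without a filter on low values 842 genes and 0 members were called in IL-2 (Ikzf3 adjusted p = 0.0597, Ikzf4 0.0918) and 0 genes and 0 members in IL-15 (Ikzf2 0.196), and Ikzf4 lost its cytokine call in KO (0.0694). At an unadjusted p of 0.05 the counts were 3391 in IL-2, 1269 with 2 members in IL-15 and 1106 with 1 in the interaction, where a filter at log2 6 gave 4. The mean of probe sets gave 1 member in IL-2, 44 genes and 0 members in IL-15, and 2 members for the cytokine in WT. Of 15758 single probe sets tested, 10 of them of the family, 2830 (18%) were called in IL-2, with 4 of the family. For the cytokine, 7623 (48.4%) were called in WT, with 7 of the family, and 7218 (45.8%) in KO. The 7 include the dimmer tested probe sets of Ikzf2 and Ikzf4. These passed the filter only through arrays of their brighter cytokine, so their calls are a description and no support. With the intensity trend Ikzf1 was called in IL-2 (adjusted p = 0.033). Quantile normalization moved the split of higher and lower calls from 43 and 79 to 41 and 47 in IL-15, and from 2707 and 1705 to 2115 and 2424 for the cytokine in WT.

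Leaving out 1 array (and with it its pair in the KO fits) gave 537 to 1525 genes and 0 to 1 members in IL-2, 0 to 11 genes and 0 members in IL-15, 0 to 1 genes and 0 members in the interaction, 2531 to 4351 genes and 3 to 5 members for the cytokine in WT, and 2330 to 4178 genes and 2 to 3 members in KO. Values that turned were small: Ikzf5 in IL-2 (-0.45 to 0.44) and in the interaction (-0.26 to 0.63), Ikzf4 in IL-15 (-0.97 to 0.021) and the cytokine difference of Ikzf3 in KO (-0.13 to 0.26). The cause of these changes was not tested, beyond the fewer arrays in the fits. No call in IL-2 or IL-15 of a family member held in every such fit. Probe sets under log2 5 have no usable level here, and 2 or 3 arrays a group limit all tests.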
